A study of Glycine max with 24 samples.

Results

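The response of wild-type soybean (Glycine max) roots to salt was measured by RNA sequencing in 6 libraries: 3 from untreated roots and 3 from roots given 150 mM NaCl for 6 h. The plants are labelled JACK (Jack here, a soybean cultivar) and wild type, and the untreated roots carry 0 h in their titles. These 6 libraries were taken by tissue, genotype and treatment from a series of 24, in which roots and leaves of Jack and of a transgenic soybean labelled GmNFYA were sequenced without and with NaCl, in 8 groups of 3. The labels do not say what drives the transgene, which NF-YA gene it carries, how many transformed lines it stands for, how old the plants were or how the salt was given. They name no untreated group at 6 h, so that NaCl and the elapsed time cannot be told apart. The replicates are numbered but not said to be separate plants, so that the p-values speak only to the spread among these libraries, which may be technical. The series title speaks of seeds, while every sample used here is labelled root or leaf. The tissue could not be checked against marker genes, because neither the count tables nor the gene table used here pairs the IDs with names or functions. Genes are therefore given by the ID in the root table, and no role is given to any of them.

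As background, a root in salty soil meets a low water potential first and a build-up of sodium and chloride ions after it. Roots respond through calcium and abscisic acid signalling, by pumping sodium out of the cell or into the vacuole, by making compatible solutes and protective proteins, and by slowing growth. Root tissue is the first to meet the salt, while leaves meet it through the transpiration stream and through signals sent up from the root.

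The untreated Jack root libraries held 17005570 to 21999307 reads assigned to genes, and those with NaCl 17517536 to 23459341. They made up 71.4 ± 0.80% of all counted reads in untreated roots and 77.7 ± 0.46% with NaCl (SD, n = 3 each). Reads that aligned to more than 1 place fell from 9.64 ± 0.59% to 6.404 ± 0.269%, and reads that did not align from 7.92 ± 0.97% to 4.74 ± 0.17%. In GmNFYA roots the gene-assigned share was 75.5 ± 0.48% and 76.8 ± 0.05%, and the share with more than 1 alignment 5.53 ± 0.34% and 5.48 ± 0.12%. The scaling factors set by edgeR were 1.01 to 1.03 in untreated Jack roots and 0.899 to 0.913 with NaCl. In GmNFYA roots the factors fell as well, from 1.08 to 1.10 untreated down to 0.986 to 0.9999 with NaCl, and so did the reads that did not align, from 6.88 ± 0.43% to 5.72 ± 0.24%. The part of these shares and factors in the results below was not tested. The spread between the 3 NaCl libraries, as edgeR's common biological coefficient of variation, was 15.6%, against 10.6% between the untreated ones. NaCl replicate 1 stood apart: without it the spread was 10.03%, whereas it was 19.2% without replicate 2 and 16.8% without replicate 3.

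Most of the tested genes changed in Jack roots, upward and downward in similar numbers. Of 36390 IDs with enough reads to test, 20695 (56.9%) passed edgeR's quasi-likelihood test at a Benjamini-Hochberg adjusted p under 0.05. Of these, 10537 rose (29.0%) and 10158 fell (27.9%). The median log2 fold change over all tested IDs was -0.01, and the median size of the change, regardless of sign, was 0.49. In 22442 of the tested IDs (61.7%) the 3 NaCl values did not overlap the 3 untreated values. Values per library are given as CPM, that is, reads of an ID after scaling every library to the same size. Without NaCl replicate 1, 10312 rose and 9849 fell, and 18916 of the IDs were called both with and without that library. In bulk roots, a change in the number of cells of a type and a change in RNA per cell cannot be told apart.

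The changes ran from small to very large. Among the IDs that rose, 5915 did so by under 2-fold, 2846 by 2 to 4-fold, 1011 by 4 to 8-fold and 765 by at least 8-fold. Among those that fell, 6013 did so by under 2-fold, 2757 by 2 to 4-fold, 889 by 4 to 8-fold and 499 by at least 8-fold. Rises of at least 4-fold thus reached 4.88% of the tested IDs (1776) and falls of that size 3.81% (1388). The values of the 3 NaCl and the 3 untreated libraries did not overlap in 1758 of the 1776 and 1370 of the 1388, against 61.7% of all tested IDs. These IDs were chosen by a test on the same 6 libraries, so that this count is a description only.

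**Figure D1:**
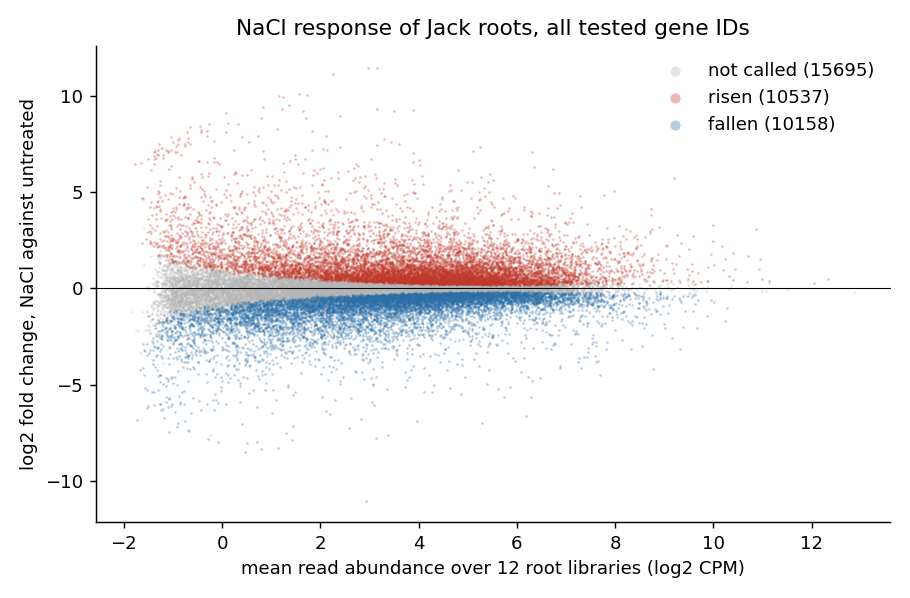
Each point is 1 tested gene ID, with its mean read abundance over the 12 root libraries (log2 CPM) on the horizontal axis and its log2 fold change with NaCl in Jack roots on the vertical axis. Red points (10537) rose, blue points (10158) fell and grey points (15695) were not called; points far from 0 lie at every abundance, more thickly on the left.

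The balance of rises and falls shifted with read abundance. Abundance is the mean log2 CPM over the 12 root libraries, which include the 6 compared, and it grows with the length of a transcript as well as with its level. Among the 3382 IDs below 0 on that scale, 16.8% rose and 19.2% fell. Among the 7222 IDs between 0 and 2, 19.8% rose and 28.2% fell. Rises passed falls at higher abundance, with 36.9% against 27.2% of the 10734 IDs between 4 and 6, and 45.5% against 33.2% of the 367 IDs at 8 and above. The median SE of a log2 fold change was 0.53 in the lowest class and 0.11 in the highest, so that a small change passed the test more readily at high abundance. At low abundance, an ID could pass the low-count filter through the group where it was high. The shares in the lowest classes, here and for the larger changes below, are therefore a description. The part of the filter in them was not tested.

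With larger changes the surplus of rises at high abundance stayed, while that of falls at low abundance was nearly gone at 4-fold. At 2-fold or more, 16.6% rose and 19.0% fell in the lowest class, nearly all of its calls, and 14.6% rose and 19.9% fell between 0 and 2. Between 4 and 6, 11.03% rose and 5.20% fell, and in the highest class 24.3% rose and 13.4% fell. At 4-fold or more the shares were close in the lowest class (10.7% risen, 10.3% fallen) and between 0 and 2 (6.24% and 6.51%), and they were 9.26% and 2.997% in the highest class. The classes also rest on the GmNFYA root libraries, in which 16.3% rose and 22.6% fell in the lowest class and 46.6% and 30.8% in the highest.

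**Figure D2:**
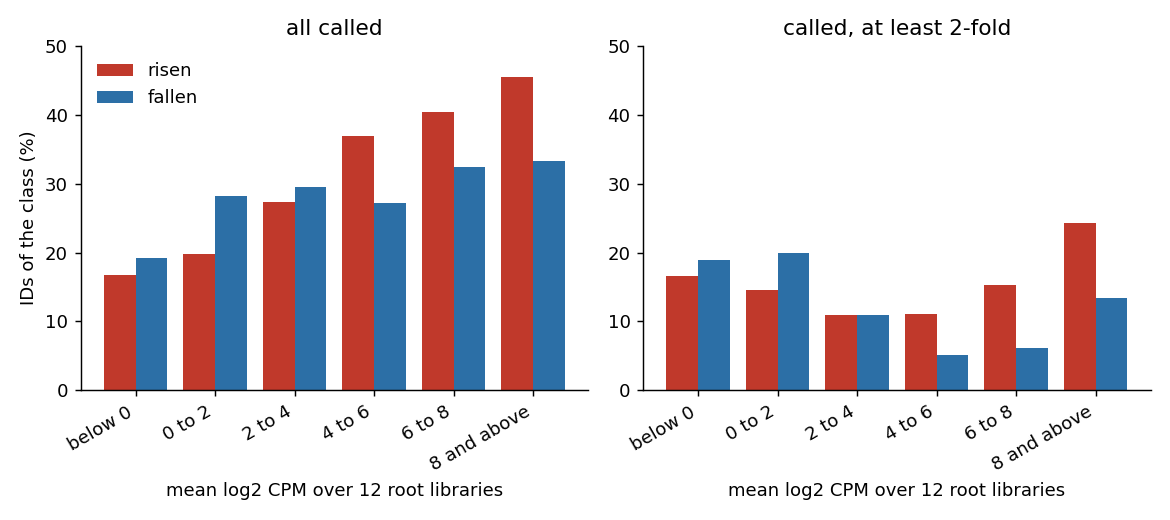
Share of IDs in each class of mean log2 CPM over the 12 root libraries that rose (red) or fell (blue) with NaCl in Jack roots, for all called IDs on the left and for called changes of at least 2-fold on the right. Falls outnumber rises in the 2 lowest classes of both panels and rises outnumber falls in the 3 highest.

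The large changes moved a sizeable part of the root's mRNA reads. The 1776 IDs that rose at least 4-fold held 1.498, 1.57 and 1.49% of the gene reads in the 3 untreated libraries and 8.33, 9.26 and 8.83% in the 3 NaCl libraries. The 1388 IDs that fell at least 4-fold went the other way, from 3.41, 3.46 and 3.52% to 0.440, 0.460 and 0.483%. All IDs that rose held 29.3 ± 0.48% of the reads without and 51.1 ± 0.73% with NaCl, and all that fell 37.6 ± 0.66% and 19.4 ± 0.52% (SD, n = 3). The IDs were chosen by these same libraries, and these shares are a description without a test. The GmNFYA root libraries were not compared in that choice, but they shared its low-count filter, scaling and dispersions. In GmNFYA roots the same 1776 IDs held 1.30 ± 0.070% of the reads without and 7.71 ± 0.34% with NaCl. The same 1388 IDs held 4.06 ± 0.17% and 0.543 ± 0.027% there.

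In these libraries reads were spread over slightly fewer IDs after salt, a difference that passed no test. The 10 IDs with most reads in a library held 3.85, 3.70 and 3.50% of gene reads in untreated roots and 4.205, 4.01 and 3.90% with NaCl. The 100 IDs with most reads held 11.7 ± 0.38% and 13.0 ± 0.39%, and the 1000 with most reads 33.5 ± 0.64% and 35.2 ± 0.30% (SD, n = 3). In each of these 3 measures every NaCl library was above every untreated one. The fewest IDs that together held a majority of the gene reads numbered 2631 ± 82 in untreated roots and 2400 ± 26 with NaCl, with no overlap. With all libraries thinned to 17005570 reads, 40333 ± 141 IDs had at least 1 read in untreated roots and 40278 ± 245 with NaCl, and the libraries of the groups overlapped. At least 10 reads were found for 34141 ± 125 and 33464 ± 266 IDs, with no overlap. Exact two-sided permutation tests gave p = 0.1 for each measure except IDs with at least 1 read (p = 0.7), and 0.1 is the smallest p that 3 against 3 libraries allow; over the 6 measures tested, the adjusted p was 0.12 and 0.7.

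Among called IDs whose NaCl and untreated values did not overlap, the largest gain in reads went to Glyma.13G270100 on chromosome 13. The call and the lack of overlap were conditions of that choice, so that both are a description only. It stood at 456, 467 and 460 CPM in the untreated libraries and at 3525, 4172 and 3815 CPM with NaCl. All 3 NaCl libraries lay far above the untreated ones, an 8.32-fold rise (log2 3.06 ± 0.13 SE, edgeR adjusted p = 3.40e-11). The next largest gain was that of Glyma.09G062900 on chromosome 9, from 1119, 1284 and 1201 CPM to 3613, 3515 and 3333 CPM. It began from a higher abundance and rose 2.90-fold, again without overlap (log2 1.54 ± 0.11 SE, edgeR adjusted p = 1.44e-08).

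Chosen under the same conditions, the largest losses were those of Glyma.08G230500 and Glyma.12G053800. Their calls and lack of overlap are likewise a description only. Glyma.08G230500, on chromosome 8, had 2001, 1810 and 1992 CPM in untreated roots and 518, 671 and 624 CPM with NaCl. It fell 3.20-fold, and its lowest untreated library was still well above its highest NaCl library (log2 -1.68 ± 0.12 SE, edgeR adjusted p = 1.18e-08). Glyma.12G053800, on chromosome 12, had 1476, 1452 and 1436 CPM without and 138, 188 and 174 CPM with NaCl. The untreated libraries lay close together, and the fall was 8.73-fold (log2 -3.13 ± 0.13 SE, edgeR adjusted p = 4.91e-11).

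**Figure D3:**
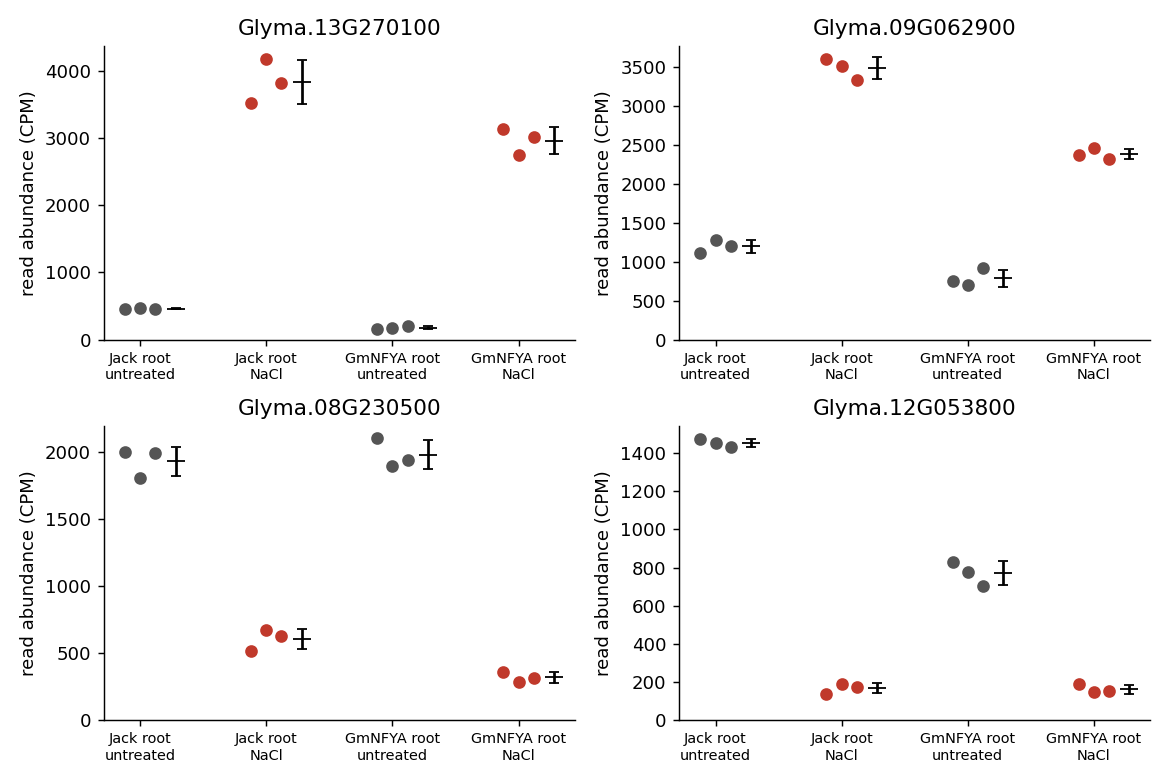
Read abundance (CPM, linear axes from 0) of the 4 IDs with the largest gain or loss of reads in Jack roots, in each of the 12 root libraries. Grey points are untreated and red points NaCl libraries, with the mean and SD over 3 libraries beside them. In all 4 panels the Jack groups do not overlap, which was a condition of the choice. The GmNFYA groups do not overlap either.

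The same 4 IDs moved the same way in GmNFYA roots, but for 3 of them by another amount. Glyma.13G270100 went from 178 ± 28.2 to 2963 ± 199 CPM there (SD, n = 3), a log2 rise of 4.05 that was larger than in Jack by 0.998 ± 0.168 (SE; edgeR interaction, adjusted p = 0.00157). Glyma.09G062900 went from 790 ± 111 to 2386 ± 67.0 CPM, and its change differed by 0.06 ± 0.16 (SE; adjusted p = 0.868). Glyma.08G230500 fell further in GmNFYA roots, from 1982 ± 108 to 317 ± 40.6 CPM (log2 difference -0.96 ± 0.17 SE, edgeR adjusted p = 0.00196). Glyma.12G053800 started lower in GmNFYA and fell less, from 770 ± 63.8 to 161 ± 23.4 CPM (log2 difference 0.87 ± 0.18 SE, edgeR adjusted p = 0.00608).

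A small set of called IDs went from no reads to reads in every library, or the reverse. In 70 IDs called as risen, the 3 untreated libraries held 0 reads and all 3 NaCl libraries held some. Their median was 1.14 CPM and their highest mean 17.3 CPM with NaCl. In 53 IDs called as fallen, all 3 untreated libraries held reads and the 3 NaCl libraries held 0. Their median was 0.436 CPM and their highest mean 12.8 CPM without NaCl. Most of these IDs were thus at low abundance, where 0 reads shows only that a transcript was not detected at this depth. All were IDs that passed the low-count filter over the 12 root libraries, and with 0 reads in 1 Jack group they passed it through the other groups. Their changes are therefore a description, in Jack and in GmNFYA roots alike. In GmNFYA roots, 19 of the 70 had 0 reads in the untreated libraries too, and 18 of the 53 had 0 reads in the NaCl libraries too. In Jack leaves, 10 of the 70 and 22 of the 53 had no reads in any of the 6 libraries.

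Every chromosome took part to a similar degree. By the chromosome number in the ID, the share of tested IDs that rose ran from 26.7% on chromosome 5 to 31.7% on chromosome 13. The share that fell ran from 26.6% on chromosome 4 to 29.7% on chromosome 10. The share called in either direction lay between 54.2% and 59.3%.

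Neighbours in the ID numbering moved together more often than distant IDs did. The numbers of these IDs follow the order along a chromosome, as the naming of soybean gene models has it, and no coordinates were used. Of 337 pairs of consecutive IDs of which both changed at least 4-fold, 261 (77.4%) changed in the same direction. In 168 pairs both rose, in 93 both fell and in 76 they went opposite ways. The share was 65.1% at a distance of 2 places, 52.9% at 5 places, 49.7% at 10 places and 47.2% at 100 places. For changes of at least 2-fold it was 68.0% in consecutive IDs (1172 of 1724 pairs) and 50.2% at 100 places. For all called IDs it was 58.1% (4785 of 8233 pairs) and 51.3%. Pairs share chromosomes and libraries and are not independent, so that these shares carry no test.

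GmNFYA roots gave a like profile, with 77.9% of 439 consecutive pairs at 4-fold or more in the same direction and 46.9% at 100 places. Their changes came from the joint fit with the Jack roots, which shared its low-count filter, scaling and dispersions. The table lists reads with more than 1 alignment apart from the genes, so the level of near-identical neighbouring copies is uncertain.

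**Figure D4:**
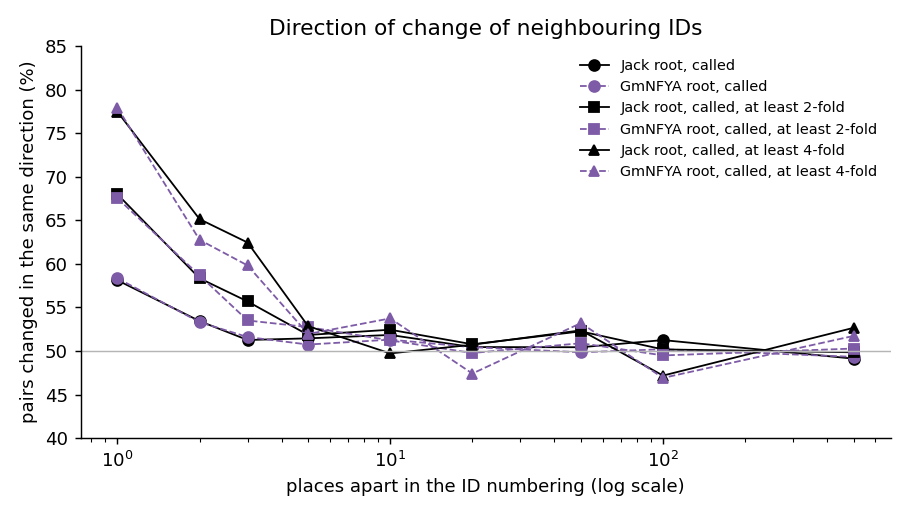
Share of ID pairs on the same chromosome that changed in the same direction (vertical axis, percent, from 40) by their distance in the ID numbering (horizontal axis, log scale), for Jack roots (black) and GmNFYA roots (violet). Circles are all called IDs, squares changes of at least 2-fold and triangles changes of at least 4-fold; the grey line marks 50%. Consecutive IDs reach 77.4% in Jack and 77.9% in GmNFYA for changes of at least 4-fold, and all 6 curves lie near 50% beyond 5 places.

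Some of these neighbours formed longer runs. In 15 runs, 3 or more consecutive IDs all rose at least 4-fold, 56 IDs in all on 9 chromosomes, and in 5 runs, 18 IDs on 4 chromosomes, all fell. Of the 56 IDs, 48 also rose in GmNFYA roots, where 28.6% of all tested IDs rose, and of the 18, 17 also fell, where 28.1% fell. Over all IDs with Jack changes of that size, 92.5% of the 1776 that rose and 93.2% of the 1388 that fell did the same in GmNFYA roots, so that IDs in rising runs were not followed more often than the others. The longest run was the 6 consecutive IDs on chromosome 7 from Glyma.07G076100 to Glyma.07G076600, singled out after its values were seen. All 6 rose, by 4.45- to 18.3-fold, with a largest edgeR adjusted p of 0.00989.

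The 2 ends of that run lay at very different abundances. Glyma.07G076600 was at 8.42, 14.9 and 11.1 CPM in untreated roots and at 82.9, 124 and 101 CPM with NaCl (log2 3.16 ± 0.27 SE, edgeR adjusted p = 2.57e-06). Glyma.07G076100 was near the limit of detection, at 0, 0.741 and 0.178 CPM without and 1.17, 1.34 and 1.61 CPM with NaCl (log2 2.19 ± 0.66 SE, edgeR adjusted p = 0.00989). In both, every NaCl library was above every untreated one. All 6 IDs of the run also rose in GmNFYA roots, with log2 fold changes of 2.34 to 4.47, and none of the 6 differed between the genotypes in the interaction test.

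The Jack response was then read in the GmNFYA roots, which share no library with it. The low-count filter, scaling and dispersions were, however, set over all 12 root libraries together. Of 36390 IDs tested, 56.7% were called in GmNFYA roots, 28.6% as risen and 28.1% as fallen. The share of a Jack size class that was called in the same direction grew with its size. It was 69.4% for rises under 2-fold, 83.9% for 2 to 4-fold, 90.8% for 4 to 8-fold and 94.6% for at least 8-fold. For falls it was 66.5, 84.9, 92.0 and 95.4% in the same order of classes. None of the 765 IDs that rose and none of the 499 that fell at least 8-fold in Jack was called in the opposite direction in GmNFYA.

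The sizes were close as well. The 765 IDs that rose at least 8-fold had a median log2 fold change of 4.12 in Jack, whose values chose them, and of 3.63 in GmNFYA (quartiles 2.53 and 4.84). The 499 that fell at least 8-fold had medians of -3.71 in Jack and -3.60 in GmNFYA (quartiles -4.46 and -2.74). Read the other way, 922 IDs rose at least 8-fold in GmNFYA roots, and 861 of them (93.4%) rose in Jack, with 5 that fell. Of 612 that fell at least 8-fold in GmNFYA roots, 562 (91.8%) fell in Jack and none rose. Over all tested IDs, 29.0% rose and 27.9% fell in Jack roots.

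Each Jack NaCl library showed the response by itself. In the 1995 IDs that rose at least 4-fold in GmNFYA roots (5.48% of those tested), the median log2 level over the untreated Jack mean was 1.69, 1.92 and 1.91 in NaCl replicates 1, 2 and 3. In the 1838 that fell at least 4-fold in GmNFYA roots (5.05%), it was -1.66, -1.56 and -1.43. The untreated Jack libraries lay between -0.04 and 0.07 on both measures. Each of them is part of the mean it was set against, so that small values were given in advance. Replicate 1 was thus the lowest of the 3 on the rising IDs and the lowest, and so the most changed, on the falling ones.

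**Figure D5:**
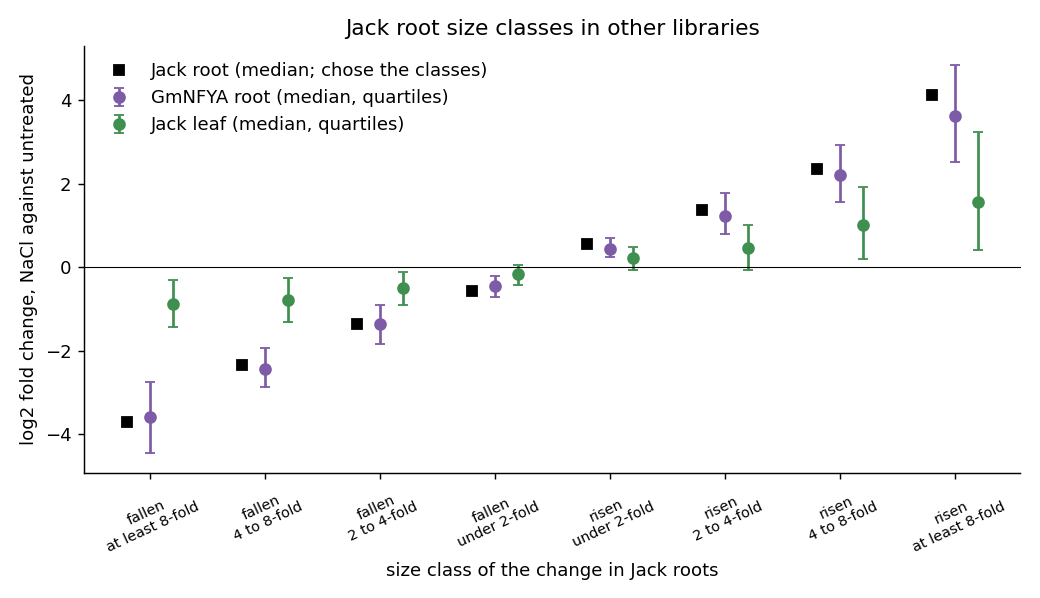
Median log2 fold change with NaCl of the IDs in each size class of the Jack root response, in Jack roots (black squares, whose values made the classes), GmNFYA roots (violet, with quartiles) and Jack leaves (green, with quartiles, IDs tested in leaf). The violet medians follow the black ones through all 8 classes, while the green ones have the same sign in every class and reach 1.57 and -0.88 at the ends.

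For part of the IDs the response differed between the genotypes in a test of that difference. The genotype by NaCl interaction passed in 3018 IDs (8.29%). The change was the more positive one in GmNFYA in 1557 of them (4.28%) and in Jack in 1461 (4.01%). Of the 3018, 1034 rose and 450 fell in both genotypes, 233 were called in opposite directions, 626 were called in Jack alone and 674 in GmNFYA alone. Among the 1484 that moved the same way in both, the change was larger in GmNFYA for 988 and larger in Jack for 496. With 1 root library left out, the number of IDs that passed the interaction test ranged from 2070 to 4212. Without Jack NaCl replicate 1 the balance of positive and negative differences turned, to 1972 and 2240, and it turned with DESeq2 as well, to 1896 and 1915.

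The IDs of high abundance with the most different responses fell into several shapes. Glyma.05G009000 rose from 24.9, 15.1 and 23.6 CPM to 54.1, 72.9 and 99.3 CPM in Jack. In GmNFYA it went from 1.26 ± 0.43 to 89.5 ± 27.5 CPM (SD, n = 3). Glyma.20G098500 rose from 20.5, 23.2 and 22.6 CPM to 107, 126 and 130 CPM in Jack, against 1.40 ± 0.68 and 145 ± 28.4 CPM for GmNFYA. Both IDs stood well above their GmNFYA level in untreated Jack roots and reached a like level in both genotypes with NaCl. The log2 differences between the genotypes' changes were 4.31 ± 0.53 and 4.26 ± 0.30 (SE; edgeR adjusted p = 0.00116 and 6.23e-06).

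The opposite difference was a stronger rise in Jack. Glyma.11G198500 rose from 1.63, 1.65 and 1.38 CPM to 154, 251 and 225 CPM in Jack roots, and from 4.55 ± 1.505 to 101 ± 13.3 CPM in GmNFYA roots (log2 difference -2.61 ± 0.38 SE, edgeR adjusted p = 0.00169). Glyma.04G100300 rose from 5.38, 13.9 and 15.2 CPM to 48.1, 101 and 93.9 CPM in Jack, and was at 32.2 ± 8.17 and 39.8 ± 8.74 CPM in GmNFYA, where its change did not pass the test (edgeR adjusted p = 0.535). Its log2 difference of -2.50 ± 0.57 (SE; edgeR adjusted p = 0.0295) lost its call with any 1 of 8 libraries left out, at an adjusted p of 0.0519 to 0.0728.

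Fewer IDs were called in leaves of the same genotype, given the same treatment, and the leaf replicates varied more. In Jack leaves 33.6% of 35222 tested IDs were called, 17.8% as risen (6283) and 15.7% as fallen (5540). With only the compared leaf groups in the fit, 7510 IDs were called in place of 11823. The counts of Jack leaf replicates differed with a chi-square per degree of freedom of 10.5 to 28.02 per pair, against 4.79 to 16.7 for Jack roots. Untreated leaf replicate 2 (26.9 and 28.02) and NaCl leaf replicate 1 (22.5 and 23.6) stood apart, and 11675 and 11288 leaf IDs were called without them. The part of that spread in the lower count was not tested. Of the 765 IDs that rose at least 8-fold in Jack roots, 559 could be tested in leaf. Of those, 348 (62.3%) rose there and 32 fell, with a median log2 fold change of 1.57. Of the 499 that fell at least 8-fold in roots, only 202 could be tested in leaf, and 86 of them (42.6%) fell there and 9 rose, with a median of -0.88. Over the 32699 IDs that were tested in both tissues, the leaf median was 0.0023.

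The smaller root classes were followed less often in leaf. Rises under 2-fold in root were called as rises in leaf for 34.1% of 5780 tested IDs and as falls for 8.20%. Falls under 2-fold were called as falls in leaf for 23.8% of 5831 tested IDs and as rises for 6.41%. Over all IDs tested in Jack leaves, 17.8% rose and 15.7% fell. In the other direction, only IDs tested in both tissues were counted. Among them, 318 rose at least 8-fold in Jack leaves, and 285 of the 318 (89.6%) also rose in roots. Of the 30 IDs tested in both tissues that fell at least 8-fold in leaves, 23 fell in roots and 5 rose. Over all IDs tested in Jack roots, 29.0% rose and 27.9% fell. The 1776 IDs that rose at least 4-fold in roots held 3.61 ± 0.44% of gene reads in untreated Jack leaves and 5.41 ± 0.33% with NaCl. The 1388 that fell at least 4-fold in roots held 1.20 ± 0.06% and 0.795 ± 0.019% of leaf reads.

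The difference between the tissues was tested over the 12 Jack libraries. The tissue by NaCl interaction passed in 7875 of 37920 IDs (20.8%). The change was the more positive one in root in 4056 (10.7%) and in leaf in 3819 (10.1%). This near-even split did not hold under other scalings. It was 4695 and 3082 with RLE size factors, and 5492 and 3703 with DESeq2. Among the 7532 of the 7875 IDs that were also tested within each tissue, 3943 were called in root alone, 1188 in leaf alone and 1190 in opposite directions. Another 765 rose and 365 fell in both. Of the 1130 that moved the same way, the change was larger in root for 797 and larger in leaf for 333.

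The root IDs with the largest gain and loss of reads had their own leaf values. Glyma.13G270100 was at 7.56, 6.13 and 10.2 CPM in untreated leaves and at 14.7, 16.6 and 10.3 CPM with NaCl, a 1.75-fold rise (edgeR adjusted p = 0.00854) that was smaller than in root by 2.25 ± 0.28 on the log2 scale (SE; edgeR interaction, adjusted p = 0.000215). Glyma.09G062900, which rose in root, fell in leaf, from 214, 493 and 177 CPM to 80.5, 91.2 and 78.4 CPM (log2 -1.82 ± 0.31 SE, edgeR adjusted p = 0.0012). The tissue difference of 3.36 ± 0.42 passed the test (SE; edgeR adjusted p = 0.000233). Glyma.08G230500 and Glyma.12G053800 had few reads in leaf, with no leaf library above 0.378 and 6.27 CPM. The 6.27 CPM was that of untreated leaf replicate 3, beside 0.596 and 0.322 CPM in the other untreated ones. At these low levels Glyma.08G230500 was called as fallen in leaf (log2 -3.57 ± 0.98 SE, edgeR adjusted p = 0.014). Glyma.12G053800 was not called there (edgeR adjusted p = 0.069). The tissue differences of these IDs did not pass (edgeR adjusted p = 0.151 and 1).

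The IDs named for the tissue difference had a high mean abundance over the libraries of both tissues, which 1 tissue alone could give. Glyma.03G247000 rose in root from 2.99, 2.13 and 2.47 CPM to 111, 223 and 226 CPM (log2 difference to leaf 7.67 ± 0.76 SE, edgeR adjusted p = 6.87e-05). In leaf it stood at 37.3, 42.3 and 19.2 CPM without and 23.0, 5.80 and 6.71 CPM with NaCl, a fall that passed narrowly (edgeR adjusted p = 0.042) although the groups overlapped. Glyma.02G228100 fell in root from 582, 494 and 572 CPM to 272, 96.5 and 102 CPM and rose in leaf from 3.57 ± 1.15 to 82.0 ± 34.0 CPM (SD, n = 3; log2 difference -6.33 ± 0.61 SE, edgeR adjusted p = 6.38e-05). In both IDs, NaCl replicate 1 was the root NaCl library least removed from the untreated ones.

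Glyma.01G204800 rose in both tissues, from 71.7, 108 and 74.9 CPM to 272, 237 and 236 CPM in root and from 0.162 ± 0.085 to 35.2 ± 23.7 CPM in leaf (log2 difference -6.14 ± 0.85 SE, edgeR adjusted p = 0.000507). It had many more reads in root, and the larger fold in leaf came from a leaf level near 0. Glyma.06G166800 met the limit on mean abundance through leaf alone. It had 0 reads in the 3 untreated root libraries and 2.18, 1.02 and 0.695 CPM with NaCl, while it stood at 136 ± 10.9 and 117 ± 22.3 CPM in leaf, where its change did not pass the test (edgeR adjusted p = 0.21). Its fitted tissue difference of 7.97 ± 1.09 on the log2 scale (SE; edgeR adjusted p = 0.000812) depends on the prior count that edgeR adds to 0 reads, and is no measure of its size.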

How the data were processed

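The authors deposited 1 table of whole-number read counts per gene ID for the 12 root libraries and 1 for the 12 leaf libraries, with no normalization. Per the submitters' processing notes, HISAT2, featureCounts and DESeq2 were used, without role or version, whereas the unassigned classes in the tables carry the names that htseq-count writes; which tool made the counts is not settled here. The sources used here give no genome build, annotation release or strand setting, so that overlapping and antisense genes cannot be told apart. TRIzol was the reagent for the RNA, per the labels. The table has 57110 rows, of which 5 name no gene (unassigned reads, 21.8 to 29.2% of all reads in Jack root libraries) and were left out. None of the 57105 IDs matched the RefSeq gene table of assembly Glycine_max_v4.0, so that pathway and marker lists could not be filled and no sequence is shown.

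The 12 root libraries were fitted together in edgeR 4.0.16 (R 4.3.3; TMM scaling, filterByExpr with a minimum count of 10, robust quasi-likelihood F test on group contrasts, no covariate), which kept 36390 IDs with 99.9% of gene reads. The 12 leaf libraries, and the 12 Jack libraries of both tissues for the tissue interaction, were fitted in the same way. A call is an adjusted p (Benjamini-Hochberg, over all tested IDs) under 0.05. SE is the log2 fold change divided by the square root of F, and CPM uses the TMM factors. The library response used log2 of CPM plus 0.5. No 2 replicates were identical or agreed within sampling noise. Alternatives were RLE size factors, no filter, the Wald test of DESeq2 1.42.0, CPM above 1 in at least 3 libraries, only the compared groups, a replicate block, and each library left out. Only the root fit, for the NaCl contrast in Jack, was tried on simulated libraries, with far fewer changed IDs than were called here. The leaf and tissue fits were not simulated.

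The comparison, the ID rules and the lists were chosen with earlier results of these data known. Named IDs were the 2 with the largest gain and 2 with the largest loss of CPM among called IDs without overlap and, for each interaction, the 2 most positive and 2 most negative differences among called IDs whose mean log2 CPM was 5 or more.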

Additional observations from a re-analysis of the deposited data

Results flagged for a closer look

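The following IDs were picked out because a test of the difference itself found that the NaCl change of Jack roots differed from that of GmNFYA roots or of Jack leaves (edgeR interaction, adjusted p under 0.05). Differences are on the log2 scale, as GmNFYA minus Jack for genotype and root minus leaf for tissue.

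For genotype, the difference was 4.31 for Glyma.05G009000 and 4.26 for Glyma.20G098500, of which untreated GmNFYA roots held far fewer reads than the other root groups. It was -2.61 for Glyma.11G198500 and -2.50 for Glyma.04G100300, the latter with a call that 8 of the 12 single libraries could each end. Of the IDs with the largest gains and losses of reads, Glyma.13G270100 differed by 0.998, Glyma.08G230500 by -0.96 and Glyma.12G053800 by 0.87.

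For tissue, the difference was 7.97 for Glyma.06G166800, a fitted value that rests on 0 reads in untreated roots, is no measure of size and belongs to an ID abundant in leaf alone, and 7.67 for Glyma.03G247000. It was -6.33 for Glyma.02G228100 and -6.14 for Glyma.01G204800. Glyma.13G270100 rose in both tissues and differed by 2.25, and Glyma.09G062900 rose in root and fell in leaf, a difference of 3.36.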

How the results depend on the processing

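Of 394 recomputed values, 380 kept their direction and their side of the threshold, or stayed within 1.5 times or the error of the value reported. For shares, that error was a binomial interval that treats IDs or pairs as independent, which they are not, so that it is a rough guide only. The share of at least 8-fold falls followed in leaf was 42.6%, and 37.1 to 42.0% with 1 Jack root library left out. IDs called in Jack roots numbered 18643 to 20161 with 1 library left out and 19301 to 20773 under the other settings, against 20695. With 1 library left out, the genotype interaction was called in 2070 to 4212 IDs, against 3018. The tissue interaction was called in 5905 to 8025, against 7875. Requiring CPM above 1 raised the share of at least 8-fold changes that GmNFYA roots followed to 97.5% for rises and 97.5% for falls, and no filter lowered the share of rises followed in leaf to 57.6%; these alternatives were added after the data were seen, and the cause was not tested. With only the compared groups, leaf calls fell to 7510, and the cause was not tested. Detected IDs (NaCl minus untreated, -55) ranged from -174 to 70.7 with 1 library left out, positive without NaCl replicate 1. The spread between NaCl libraries ranged from 10.03 to 19.2%. Glyma.04G100300 lost its genotype call in 8 settings. Under RLE factors the tissue interaction split into 4695 more positive in root and 3082 in leaf, and under DESeq2 into 5492 and 3703, against 4056 and 3819. Same-numbered libraries deviated together weakly (r = 0.05, 0.10 and 0.13 across IDs, each the highest for its number), which was not taken as pairing; with the replicate block, 20215 IDs were called in Jack roots, 10296 risen and 9919 fallen, 2706 for the genotype and 7752 for the tissue interaction. The alternative for gene lists was not run, as the lists had no members. Counting depth limits IDs below about 1 CPM most.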
